A study of Homo sapiens with 6 samples.

Results

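Genes of epithelial cell-cell junctions, apical-basal polarity and the factors that accompany them were followed in AALE, an established human cell line made from basal cells of the bronchus with SV40 early genes and hTERT. The members were 40 named genes of the 57736 rows in the expected count table, found by gene symbol, and all 40 were present and passed the filter on low counts. The control group carried a lentiviral control vector (3 libraries) and the other group a lentiviral vector that overexpresses NRG1, the growth factor neuregulin (3 libraries). Both groups share the immortalised background, a small airway growth medium and selection as stable pools of cells, so each group is a transduced population of 1 line and not a set of donors or clones. Whether the 3 libraries of a group were grown separately is not given in the labels, and the p-values then measure only the spread between libraries, which may be technical. Values by library are in the order of replicates 1 to 3 throughout.

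Epithelial sheets are held together by adherens junctions, built on cadherins and catenins, by desmosomes, which anchor keratin filaments, and by tight junctions, which seal the space between cells. Gap junctions are channels of connexins that join the cytoplasm of neighbours. Polarity complexes set the apical and basal sides, and the splicing regulators ESRP1 and ESRP2 keep epithelial isoforms of many transcripts. In the airway these genes underlie the barrier of the surface epithelium, and many of them are known to be repressed through E-boxes by ZEB and SNAI factors when epithelial cells take on mesenchymal features.

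Each library held between 8612234 and 13207620 expected counts. NRG1, the targeted gene, was at 7.87 to 12.3 CPM (counts relative to library size, scaled between libraries by TMM, a trimmed mean method) in the controls. With the NRG1 vector it was at 6647, 3854 and 3781 CPM, highest in NRG1 1. On the first principal component (44.5% of the variance) control 3 lay at one end and NRG1 2 and NRG1 3 at the other, and on the second (27.3%) NRG1 1 stood apart. For the members called without control 3 and NRG1 1, and for others that rest on them, values without these libraries are given too. All 10 basal cell markers passed the filter, with KRT5 at 3141 to 6952 CPM and TP63 at 158 to 228 CPM, and their sum was 9978 to 14106 CPM in the controls but 6769 to 7787 CPM with NRG1. Within that list KRT14 was at 591 to 1322 CPM and 87.5 to 348 CPM, and KRT17 at 2596 to 3140 CPM and 1368 to 1483 CPM, both without overlap and both called as lower by DESeq2 and not by edgeR (adjusted p = 0.000788 and 2.05e-06, against 0.268 and 0.166). KRT15 went the other way, at 16.2, 11.5 and 7.49 CPM with the control vector and at 13.4, 80.4 and 79.4 CPM with NRG1. Its groups overlapped, and it was called as higher by DESeq2 and not by edgeR (adjusted p = 0.00773, against 0.328). The 10 mesenchymal markers summed to 3054 to 4661 CPM in the controls, to 1427 CPM in NRG1 1, and to 558 and 576 CPM in NRG1 2 and NRG1 3. Most of that sum was FN1, at 2784 to 4293 CPM in the controls and at 1083, 413 and 419 CPM with NRG1. FN1, ZEB1, ZEB2 and TAGLN were lower in every NRG1 library than in every control, and the other markers of that list overlapped. VIM and SNAI2, at 156 and 150 CPM in NRG1 1, lay inside the control range there, and TWIST1 had a log2 fold change of 0.24. Fibroblast markers summed to 43.5 to 68.4 and to 20.3 to 28.1 CPM. The 7 airway secretory markers summed to at most 0.404 CPM except in control 3 (28.1 CPM) and NRG1 3 (59.5 CPM), the 6 ciliated markers to 7.05 to 31.4 CPM and the 5 endothelial markers measured to 1.08 to 4.08 CPM. The 6 leukocyte markers summed to 9.44 to 34.05 CPM, nearly all of it CD68 and CD14, while CD3E was at 0 in every library and PTPRC at no more than 0.154 CPM. The part of these markers in the member results was not tested.

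The region upstream of the start site is shown for a few members, because E-boxes there are the known sites of the repressors named above. The RefSeq promoter table (GRCh38.p14; 250 bases before to 50 bases after each start) had entries for 23 of the 40 members, in 35 windows. Members not found in it were CDH3, CTNND1, EPCAM, NECTIN1, F11R, MARVELD3, PARD6B, LLGL2, ESRP1, ESRP2, PKP2, PKP3, GJB5, ST14, SPINT2, PRSS8 and MAL2. The letters searched were CACCTG and its reverse complement CAGGTG, which cannot overlap the other motif searched. They occurred in 15 of the 35 member windows (42.9%), belonging to 14 genes, and in 20.6% of all 35116 windows of the table. AACCGG or CCGGTT, the core of the site of GRHL factors, occurred in 7 member windows (20.0%) and in 7.23% of all windows. Member windows were also richer in G and C, with a median of 65.7% against 58.7%, and the part of base composition in these shares was not tested. The 250 bases before the start are printed 5′ to 3′ on the strand of the gene, with the E-box letters in capitals. CRB3, CLDN7 and AP1M2 held the most (5, 4 and 3), while DSG2 held 2 and GJB2 held 0. A further CLDN7 window, at chr17:7263214-7263463, held 0 and is not printed. No relation to level is read from these counts: CGN, which like DSG2 was at a higher level in all NRG1 libraries, held 0, as did DSG3.
CRB3, chr19:6464021-6464270, plus strand: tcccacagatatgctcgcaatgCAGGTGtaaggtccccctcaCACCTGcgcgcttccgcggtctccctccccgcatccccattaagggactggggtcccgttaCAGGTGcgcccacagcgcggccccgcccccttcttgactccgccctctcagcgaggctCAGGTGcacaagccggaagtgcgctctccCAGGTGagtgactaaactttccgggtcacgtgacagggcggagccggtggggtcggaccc
CLDN7, chr17:7262479-7262728, minus strand: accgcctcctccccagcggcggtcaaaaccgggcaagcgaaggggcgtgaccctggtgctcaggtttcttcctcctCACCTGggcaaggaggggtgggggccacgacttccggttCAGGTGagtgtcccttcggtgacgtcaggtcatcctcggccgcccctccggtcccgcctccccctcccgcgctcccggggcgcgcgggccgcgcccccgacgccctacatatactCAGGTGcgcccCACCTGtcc
AP1M2, chr19:10587313-10587562, minus strand: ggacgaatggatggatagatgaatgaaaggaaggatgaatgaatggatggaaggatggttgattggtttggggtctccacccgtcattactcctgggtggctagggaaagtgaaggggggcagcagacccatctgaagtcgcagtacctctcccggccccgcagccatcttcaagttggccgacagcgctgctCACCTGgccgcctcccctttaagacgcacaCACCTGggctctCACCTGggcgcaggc
DSG2, chr18:31497927-31498176, plus strand: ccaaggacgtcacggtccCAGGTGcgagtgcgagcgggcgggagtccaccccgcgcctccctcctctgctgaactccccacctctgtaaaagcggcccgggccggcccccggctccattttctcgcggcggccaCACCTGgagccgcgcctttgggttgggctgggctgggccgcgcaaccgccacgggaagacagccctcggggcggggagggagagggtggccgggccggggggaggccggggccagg
GJB2, chr13:20192939-20193188, minus strand: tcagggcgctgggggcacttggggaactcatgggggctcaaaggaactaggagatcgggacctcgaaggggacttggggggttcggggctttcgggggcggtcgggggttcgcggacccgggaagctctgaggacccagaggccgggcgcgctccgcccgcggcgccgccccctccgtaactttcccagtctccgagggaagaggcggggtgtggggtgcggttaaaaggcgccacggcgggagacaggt

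As a group, the 40 members lay somewhat higher in NRG1 2 and NRG1 3 than in the controls, while the median member of NRG1 1 was at the control level. In these bulk samples, fewer cells of a kind and less RNA per cell cannot be told apart. In edgeR (quasi-likelihood test, Benjamini-Hochberg adjusted p over the 15421 genes tested) 0 members passed, where 0.00648% of genes (NRG1 alone) were called. At an unadjusted p under 0.05 there were 10 members, 8 higher (TJP3, DSG3, CGN, MAL2, EPCAM, CTNND1, DSG2 and PRSS8) and 2 lower (GJB2 and GJB5). The background at that level was 5.08% of all genes higher and 6.72% lower, 11.8% together, against 25.0% of the members. DESeq2 called 1 member, CTNND1, as higher (0.597% of all genes were called higher, 0.759% lower and 1.36% in either direction). Without a filter on low counts edgeR called 0 members and 0.0704% of all genes (0.0335% higher, 0.0369% lower). Members called were also 0 with a filter at 1 CPM in 3 libraries (0.0065% of all genes called), in limma-trend on log2(CPM + 1), limma-voom and the replicate block (0.013% each), and in limma-trend on the deposited log2 values (0.00678%). The fitted log2 fold change was above 0 for 32 of 40 members, against 50% of all genes, with a member median of 0.21 and a median of 0.00 over all genes. In 4 members every NRG1 library lay above every control, against 9.36% of all genes, and in 3 all lay below, against 10.2%. Together these 7 members make 17.5%, close to the 19.6% of all genes whose groups did not overlap. Separation of the groups was thus no more common among the members than elsewhere.

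The libraries of the NRG1 group differed from one another more than this count shows. In NRG1 2, 24 of 40 members lay above all 3 controls and 4 lay below all 3, where 28.8% and 28.1% of all genes did so. In NRG1 3 the numbers were 23 and 5, against 28.1% and 28.5%. In NRG1 1, 8 members (20.0%) lay above and 13 (32.5%) below, against 28.3% and 30.1% of all genes, so the share below was near the background; the other 19 fell within the control range. The median member, relative to the control mean on the log2 CPM scale, was at -0.06, 0.03 and 0.03 with the control vector, at -0.04 in NRG1 1, and at 0.29 and 0.32 in NRG1 2 and NRG1 3. With control 3 and NRG1 1 left out, edgeR's quasi-likelihood test called 13 members, 12 higher and 1 lower, where 5.04% and 4.79% of all genes (9.82% together) were called. Leaving out libraries for their distance from the rest shrinks the spread within groups, and by how much this makes the p-values of that 2 against 2 comparison too small is not known.

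**Figure D1:**
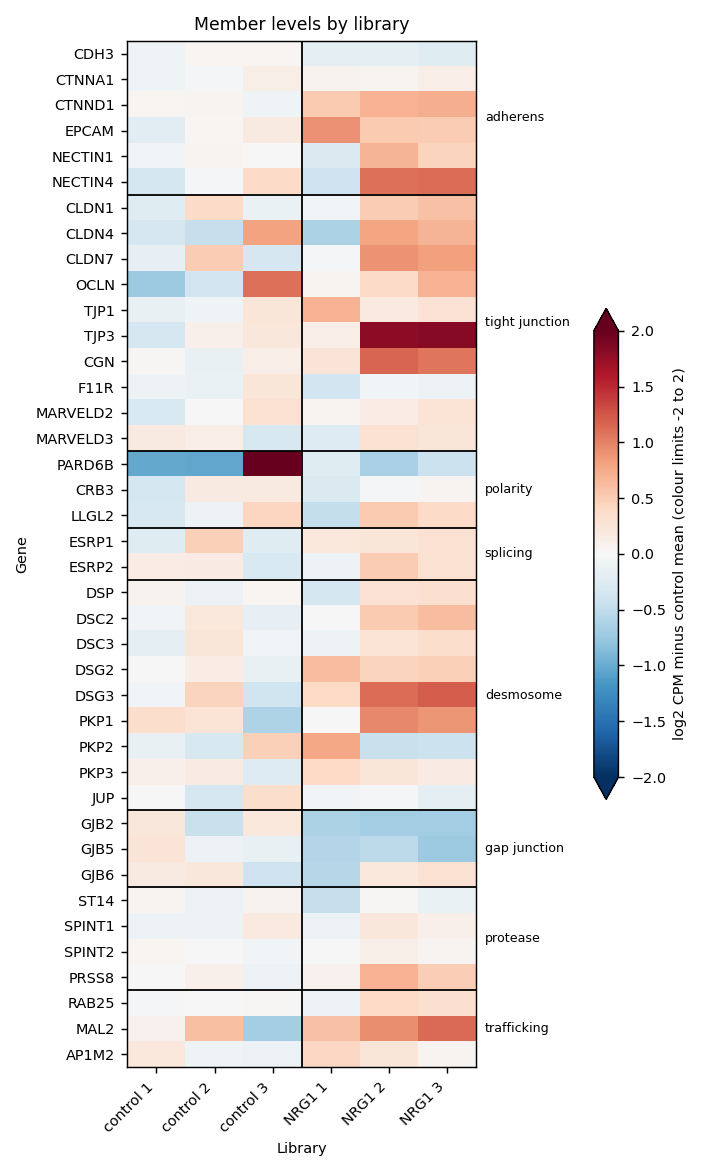
Level of each of the 40 members (rows, in 8 subgroups divided by lines) in each library (columns), as log2 CPM with a prior count of 2 minus the mean of the 3 controls; red is higher and blue lower. NRG1 2 and NRG1 3 are mostly red outside the gap junction rows, NRG1 1 is mixed, and PARD6B stands out in control 3.

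Among adherens junction and adhesion genes, CTNND1 and EPCAM were higher in every NRG1 library than in every control. CTNND1 (ENSG00000198561, chromosome 11) encodes p120-catenin, which binds the cadherin tail and holds cadherins at the surface. Its level was 276, 278 and 253 CPM with the control vector and 388, 435 and 445 CPM with NRG1, so the groups did not overlap and the NRG1 libraries were close together. The means were 269 ± 13.6 and 423 ± 30.8 CPM (SD, n = 3 each), and the log2 fold change was 0.65 (SE 0.14; adjusted p = 0.239 in edgeR and 0.00628 in DESeq2). That DESeq2 value is the one call among the members with all libraries; in edgeR without control 3 and NRG1 1 the log2 fold change was 0.67 (adjusted p = 0.0109).

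EPCAM (ENSG00000119888, chromosome 2), an epithelial adhesion protein that partners claudin-7, was at 66.7, 80.0 and 88.2 CPM with the control vector and at 147, 111 and 111 CPM with NRG1. It was highest in NRG1 1, the library whose median member was at the control level. The log2 fold change was 0.65 (SE 0.18; adjusted p = 0.332 in edgeR), or 0.60 (adjusted p = 0.0247) without control 3 and NRG1 1. NECTIN4, an adhesion receptor of the nectin family, was at 16.0, 20.0 and 26.6 CPM with the control vector, then 15.2, 44.0 and 44.4 CPM with NRG1, so NRG1 1 alone was low. Its relative NECTIN1 followed the same pattern, at 101 to 109 CPM in the controls, 86.2 CPM in NRG1 1, and 168 and 143 CPM in the others. With all libraries NECTIN4 and NECTIN1 had log2 fold changes of 0.73 and 0.34, and without control 3 and NRG1 1 of 1.30 and 0.57 (adjusted p = 0.00536 and 0.0277 in edgeR).

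CDH3, encoding P-cadherin, the cadherin typical of basal layers, went the other way by a small step. It was at 332, 362 and 361 CPM in the controls and at 306, 309 and 299 CPM in the NRG1 libraries, without overlap, a log2 fold change of -0.21 (SE 0.13; adjusted p = 0.532 in edgeR). Per kilobase of exon CDH3 was about level with CTNNA1 in control, at 56.4 and 55.9 CPM per kilobase, and below it in NRG1, at 48.8 and 59.3. CTNNA1, the alpha-catenin that links cadherins to actin, was at 462 to 532 CPM in the controls, against 513 to 541 CPM with NRG1, which overlapped. The subgroup's median log2 fold change was 0.49 over 6 genes.

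**Figure D2:**
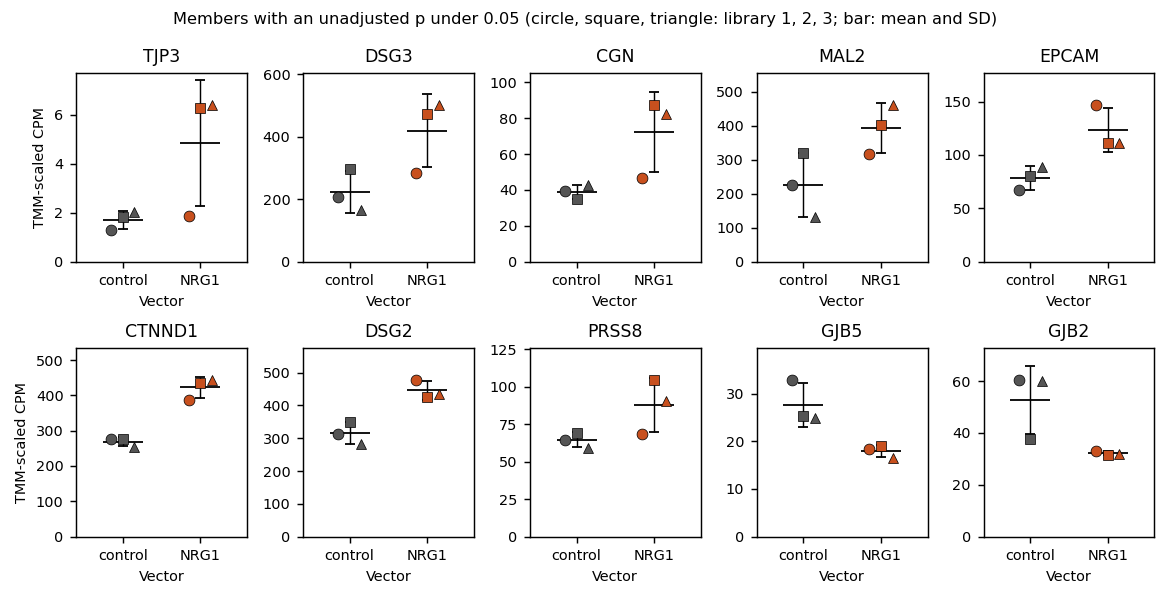
TMM-scaled CPM (vertical axes from 0, a different scale in each panel) of the 10 members with an unadjusted p under 0.05, for the control and NRG1 vectors; each point is a library and the bar gives the mean and SD of 3. CTNND1, EPCAM, CGN and DSG2 do not overlap between groups, nor do GJB2 and GJB5, while TJP3 in NRG1 1 lies at the control level.

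In the tight junction subgroup, the cytoplasmic plaque proteins TJP3 and CGN had the largest differences, and the difference rested mainly on NRG1 2 and NRG1 3. TJP3 (ENSG00000105289, chromosome 19), the scaffold ZO-3, was at 1.29, 1.82 and 2.01 CPM with the control vector, then 1.85, 6.26 and 6.40 CPM with NRG1. NRG1 1 thus lay inside the control range, and the log2 fold change was 1.53 (SE 0.50; adjusted p = 0.358 in edgeR), or 2.04 (adjusted p = 0.0107) without control 3 and NRG1 1. At the lowest mean level of all members in control (1.70 CPM), TJP3 rested on as few as 15 expected counts in a library. CGN (ENSG00000143375, chromosome 1), cingulin, which ties the junction to actomyosin, was at 39.4, 35.0 and 42.6 CPM with the control vector and at 46.5, 87.6 and 82.3 CPM with NRG1. Its groups did not overlap, though NRG1 1 lay only just above control 3, and the log2 fold change was 0.89 (SE 0.25; adjusted p = 0.332 in edgeR), or 1.19 (adjusted p = 0.0036) without control 3 and NRG1 1. TJP1, the scaffold ZO-1, differed in its pattern: it was highest in NRG1 1 (286, 203 and 216 CPM with NRG1), and the controls ran from 161 to 209 CPM.

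The membrane proteins of the tight junction varied with library as much as with vector. CLDN4, a barrier-forming claudin, was at 39.5, 35.9 and 86.7 CPM with the control vector and at 31.9, 86.2 and 80.1 CPM with NRG1, so control 3 was high and NRG1 1 low. OCLN, occludin, was at 28.8, 36.7 and 103 CPM with the control vector and at 49.4, 62.3 and 77.7 CPM with NRG1. With all libraries their log2 fold changes were 0.29 (SE 0.44) and 0.17 (SE 0.45), and without control 3 and NRG1 1 they were 1.14 and 1.10 (adjusted p = 0.00377 and 0.0108 in edgeR). For OCLN the direction itself turned when control 1 (-0.14), control 2 (-0.06) or NRG1 3 (-0.01) was left out. CLDN7, with 4 E-boxes in the window printed above, was at 110, 175 and 96.9 CPM with the control vector. With NRG1 it was at 121, 230 and 216 CPM, so NRG1 1 again fell within the controls. CLDN1 was at 83.8 to 129 CPM and 95.7 to 149 CPM in the 2 groups.

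F11R, the junctional adhesion molecule A, was in control the most abundant tight junction member per kilobase of exon, at 64.0 CPM per kilobase (56.0 in NRG1, where CLDN7 was at 75.8), and the one member of this subgroup with a fold change below 0. It was at 298, 292 and 381 CPM with the control vector and at 246, 309 and 296 CPM with NRG1, with overlap. MARVELD2 (tricellulin, which seals the corners where 3 cells meet) and MARVELD3 stood at log2 fold changes of 0.14 (SE 0.20) and 0.11 (SE 0.24). The subgroup's median was 0.32 over 10 genes, and relative to the control mean its per-library median was 0.01, 0.44 and 0.63 with NRG1, while control 3 was at 0.23.

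The 3 polarity genes showed no common direction. PARD6B, a subunit of the apical PAR complex, was at 7.58, 7.47 and 65.2 CPM with the control vector, control 3 standing far above, and at 13.1, 9.81 and 11.5 CPM with NRG1. Its log2 fold change was -1.24 (SE 0.80; adjusted p = 0.546 in edgeR) with all libraries and 0.60 (adjusted p = 0.501) without control 3, so 1 library set its direction; DESeq2 gave it no adjusted p. LLGL2, a basolateral polarity protein, was at 44.7, 51.7 and 74.7 CPM with the control vector, then 40.2, 80.4 and 72.8 CPM with NRG1, and it was called as higher without control 3 and NRG1 1 (log2 fold change 0.67, adjusted p = 0.0191 in edgeR). CRB3, the apical Crumbs protein and the member with the most E-boxes in the printed window, was at 17.8, 25.7 and 25.7 CPM in the controls and 18.7, 22.4 and 23.7 CPM in the NRG1 libraries, a log2 fold change of -0.09 (SE 0.23).

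The splicing regulators ESRP1 and ESRP2 were at similar levels in both groups. ESRP1 was at 162, 267 and 163 CPM with the control vector and at 221, 226 and 236 CPM with NRG1, inside the control range in every case. ESRP2 was at 95.3, 97.0 and 69.6 CPM and at 80.8, 123 and 107 CPM. Their log2 fold changes of 0.21 (SE 0.21) and 0.25 (SE 0.21) were about the size of their errors, and the subgroup's median was 0.23. The log2 ratio of ESRP1 to ESRP2 was 1.15 ± 0.35 in control and 1.16 ± 0.29 in NRG1 (SD, n = 3 each).

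Of the desmosomal cadherins, DSG2 was at a higher level in all NRG1 libraries, while DSG3, DSC2 and DSC3 overlapped between the groups. None passed adjustment over all genes. DSG2 (ENSG00000046604, chromosome 18), the desmoglein found in simple as well as stratified epithelia, was at 314, 349 and 281 CPM with the control vector and at 479, 426 and 435 CPM with NRG1, without overlap. The log2 fold change was 0.50 (SE 0.14; adjusted p = 0.332 in edgeR), and NRG1 1 was the highest library, as for EPCAM and TJP1. DSG3 (ENSG00000134757, chromosome 18), a desmoglein of stratified epithelia, was at 208, 297 and 165 CPM with the control vector and at 285, 471 and 503 CPM with NRG1. NRG1 1 lay below control 2, so the groups overlapped, and the log2 fold change was 0.91 (SE 0.28; adjusted p = 0.342 in edgeR), or 0.95 (adjusted p = 0.0170) without control 3 and NRG1 1. The desmocollins DSC2 and DSC3 had smaller values, 0.40 (SE 0.21) and 0.18 (SE 0.18).

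Of the plaque genes, DSP, desmoplakin, which binds keratin filaments, was the most abundant member of all, at 1367, 1207 and 1348 CPM in the controls and at 1026, 1588 and 1631 CPM in the NRG1 libraries. NRG1 1 was thus the lowest library and NRG1 2 and NRG1 3 the highest, and the log2 fold change was 0.11 (SE 0.20). Per kilobase of exon DSP stood at 129.5 CPM per kilobase in control, followed by JUP, plakoglobin, at 119, which had the lowest fold change of the subgroup at -0.12 (SE 0.19). JUP was at 574, 457 and 735 CPM in the controls and at 556, 571 and 505 CPM in the NRG1 libraries, all inside the control range. PKP1 and PKP2, plakophilins of stratified and of simple epithelia, ran in opposite directions across the libraries. PKP1 was at 466, 440 and 239 CPM with the control vector and 363, 710 and 675 CPM with NRG1. Its log2 fold change was 0.61 (SE 0.32), and 0.61 again (adjusted p = 0.0181 in edgeR) without control 3 and NRG1 1. PKP2 was at 77.4, 68.5 and 120 CPM and at 147, 63.3 and 64.0 CPM, so it was high in control 3 and NRG1 1, where PKP1 was low. PKP3, the plakophilin of most epithelia, was at 99.7 to 133 CPM in the controls and 133 to 157 CPM with NRG1, a log2 fold change of 0.26 (SE 0.17).

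Connexin genes stood against the other subgroups, with GJB2 and GJB5 lower in every NRG1 library than in every control, NRG1 1 included. GJB2 (ENSG00000165474, chromosome 13), connexin 26, was at 60.6, 37.7 and 60.1 CPM with the control vector and at 33.1, 31.7 and 31.9 CPM with NRG1, close to one another. The means were 52.8 ± 13.05 and 32.2 ± 0.780 CPM (SD, n = 3 each), and the log2 fold change was -0.71 (SE 0.22; adjusted p = 0.351 in edgeR). GJB5 (ENSG00000189280, chromosome 1), connexin 31.1, was at 33.0, 25.2 and 24.9 CPM with the control vector and at 18.3, 19.0 and 16.5 CPM with NRG1, a log2 fold change of -0.63 (SE 0.21; adjusted p = 0.358 in edgeR). In the 2 against 2 comparison GJB5 was the 1 member called as lower (log2 fold change -0.72, adjusted p = 0.0485), and GJB2 was not called (-0.63, adjusted p = 0.106). GJB6, connexin 30, was at 2.47 to 4.67 CPM across all 6 libraries with a log2 fold change of 0.03 (SE 0.37). Relative to the control mean, the median of the 3 genes was -0.58, -0.53 and -0.69 with NRG1, the one subgroup in which all NRG1 libraries lay well below 0. Per kilobase of exon GJB2 and GJB5 were about level, at 20.7 and 20.4 CPM per kilobase in control and at 12.7 and 13.2 in NRG1.

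**Figure D3:**
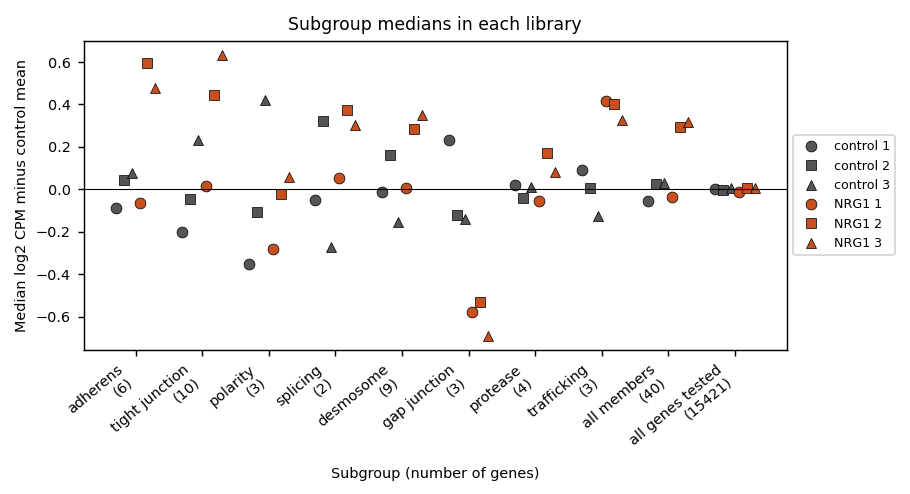
Median over each subgroup (number of genes in brackets) of log2 CPM minus the control mean, for each of the 6 libraries; grey points are controls, orange points NRG1, and shapes mark the library number. For gap junction genes the 3 NRG1 libraries lie between -0.69 and -0.53, and for tight junction genes NRG1 2 and NRG1 3 lie at 0.44 and 0.63 with NRG1 1 at 0.01.

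The membrane serine proteases and their inhibitors differed little between the groups apart from PRSS8. ST14, matriptase, was at 74.2, 66.0 and 75.5 CPM in the controls and at 52.3, 72.8 and 65.1 CPM in the NRG1 libraries, a log2 fold change of -0.18 (SE 0.18). Its Kunitz-type inhibitors SPINT1 and SPINT2 stood at 0.07 (SE 0.16) and 0.06 (SE 0.13). SPINT2, the most abundant of the 4 per kilobase of exon (55.5 CPM per kilobase in control), was at 296, 291 and 279 CPM and at 289, 313 and 300.3 CPM. PRSS8 (ENSG00000052344, chromosome 16), prostasin, which matriptase activates, was at 64.7, 69.3 and 59.3 CPM with the control vector and at 68.5, 105 and 90.2 CPM with NRG1. NRG1 1 fell just under control 2, and the log2 fold change was 0.45 (SE 0.19; adjusted p = 0.418 in edgeR), or 0.54 (adjusted p = 0.0318) without control 3 and NRG1 1.

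Of the genes of epithelial membrane traffic, MAL2 (ENSG00000147676, chromosome 8), a protein of transport to the apical surface, had the largest difference. It was at 224, 318 and 131 CPM with the control vector and at 317, 401 and 462 CPM with NRG1, so NRG1 1 and control 2 were level, and the log2 fold change was 0.81 (SE 0.30; adjusted p = 0.387 in edgeR), or 0.67 (adjusted p = 0.0523) without control 3 and NRG1 1. It was the most abundant of the 3 per kilobase of exon, with 65.4 CPM per kilobase in control and 115 in NRG1. RAB25, an epithelial GTPase of recycling endosomes, was at 53.3, 54.8 and 55.4 CPM in the controls and at 49.9, 72.0 and 68.4 CPM in the NRG1 libraries, and AP1M2, the epithelial clathrin adaptor subunit, had a log2 fold change of 0.24 (SE 0.17). AP1M2 was at 75.5, 61.6 and 59.9 CPM with the control vector and at 87.1, 77.3 and 68.2 CPM with NRG1, which overlapped.

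**Figure D4:**
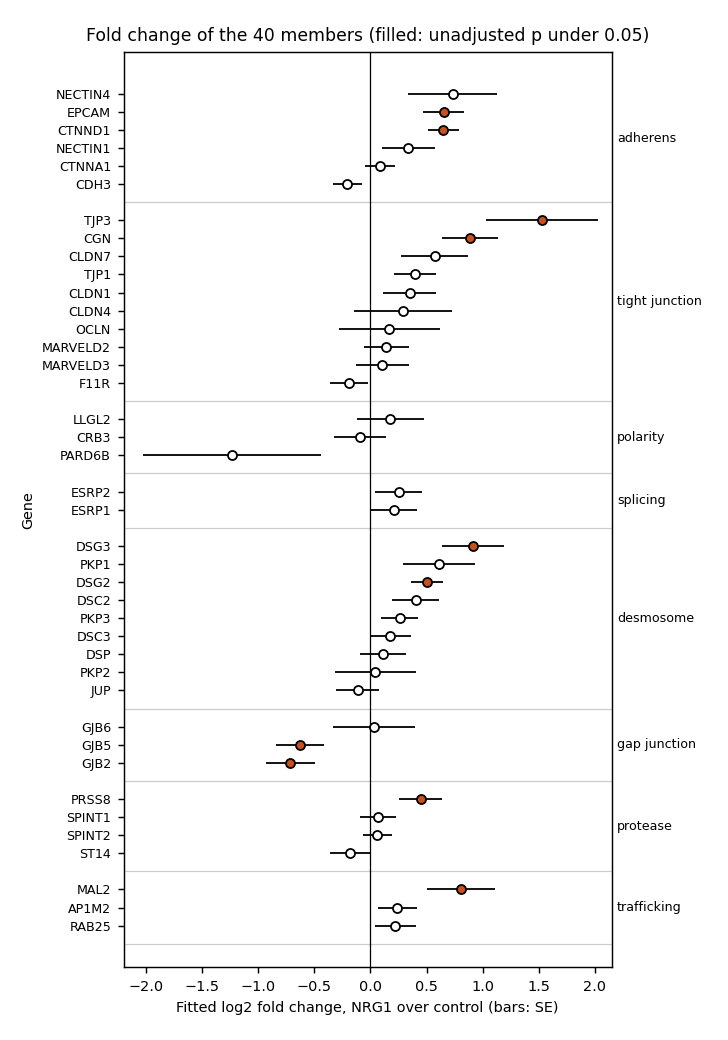
Fitted log2 fold change of NRG1 over control for each member (points) with its SE (bars), by subgroup; filled points have an unadjusted p under 0.05, and none passed adjustment over all genes. Most points lie above 0, from TJP3 at 1.53 down to PARD6B at -1.24, and the filled points below 0 are both connexins.

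The balance between related genes was compared within libraries for 6 ratios, which removes any scaling between libraries. The smallest p that 3 against 3 libraries allow is 0.1 (two-sided exact permutation test), so none could pass the threshold, and after Benjamini-Hochberg adjustment over the 6 the values ran from 0.6 to 1. The log2 ratio of ST14 to SPINT1 was -0.81, -0.98 and -1.07 with the control vector and -1.30, -1.16 and -1.20 with NRG1, the 1 ratio without overlap (difference -0.26, exact permutation p = 0.1, adjusted p = 0.6). For DSG3 to DSG2 it was -0.59, -0.23 and -0.77 in control and -0.75, 0.15 and 0.21 in NRG1, highest in NRG1 2 and NRG1 3 and with overlap (difference 0.40, exact permutation p = 0.3). For PKP1 to PKP2 it was 2.59, 2.68 and 1.00 with the control vector and 1.30, 3.49 and 3.40 with NRG1. Control 3 and NRG1 1 were both low in this ratio, and the mean difference of 0.64 (exact permutation p = 0.5) was smaller than the SD within either group. For DSC3 to DSC2 and CLDN1 to CLDN4 the differences were -0.21 (exact permutation p = 0.2) and 0.07 (exact permutation p = 1).

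Other genes of the same structures, a list of 67 of which 56 passed the filter, had a median log2 fold change of 0.04, with 31 above 0 and 25 below. Relative to the control mean, their median was -0.06, -0.05 and 0.12 with the control vector and 0.05, 0.13 and 0.07 with NRG1. The higher medians of the 40 members in NRG1 2 and NRG1 3 were thus not matched in this list. In edgeR 0 passed over all genes, while 8 (14.3%, near the 11.8% of all genes) had an unadjusted p under 0.05, 4 of them higher. CDH1, E-cadherin, was at 381, 353 and 361 CPM with the control vector and at 432, 575 and 557 CPM with NRG1, without overlap (log2 fold change 0.51, SE 0.16; adjusted p = 0.343 in edgeR). DLG1, a basolateral polarity scaffold, was at 104 to 112 CPM in the controls, against 148 to 158 CPM with NRG1 (log2 fold change 0.50, SE 0.13). MYO5B and RAB11A, a motor and a GTPase of apical recycling, stood at log2 fold changes of 0.64 (SE 0.25) and 0.44 (SE 0.17). Lower were NECTIN3, at 6.02 to 6.29 CPM in the controls, against 1.59 to 4.33 CPM with NRG1, and the actin linker VCL, vinculin, at 184 to 466 CPM and 162 to 181 CPM. The log2 fold change of VCL was -0.79 (SE 0.32) with all libraries and -0.29 without control 3, its highest library.

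DSG1, a desmoglein of the upper layers of stratified epithelia, held 13, 32 and 24 expected counts with the control vector and 0, 1.09 and 2 with NRG1. It was the 1 gene of the 56 tested in this list that DESeq2 called (adjusted p = 0.0239, against 0.17 in edgeR). DESeq2 called 1.36% of all genes, so 1 call is near the background. GJC1, another connexin, was at 69.4, 59.4 and 58.8 CPM with the control vector and at 55.1, 47.5 and 45.2 CPM with NRG1, without overlap, as for GJB2 and GJB5 (adjusted p = 0.453 in edgeR). The channel genes PANX1 and GJA1, connexin 43, stood at log2 fold changes of 0.13 (SE 0.19) and -0.13 (SE 0.44), GJA1 moving to -0.83 (adjusted p = 0.0841 in edgeR) without control 3 and NRG1 1. TMPRSS4, another membrane protease, was at 1.77 to 2.42 CPM in the controls, then 0.494, 8.50 and 9.88 CPM with NRG1. It was high in NRG1 2 and NRG1 3, as were TJP3 and NECTIN4. In NRG1 1 it lay well below the controls, unlike TJP3, and rested on 4 expected counts.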

How the data were processed

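Sequencing of polyA RNA (TruSeq libraries, according to the labels) covered 3 control and 3 NRG1 samples. The deposited expected counts, neither whole nor normalized, covered 57736 Ensembl genes. Tools listed in the submitters' processing notes, with no role stated, are RSEM 1.3.0, STAR 2.5.3a, MultiQC 0.9 and FastQC 0.11.3; hg19 is the build listed, and which annotation was used is not stated there. The deposited log2 table of 14759 genes, named for CPM, went below 0 and equals log2 CPM with TMM scaling recomputed from the counts (largest difference 4.97e-14); it served as an alternative.

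The rounded counts went into edgeR 4.0.16 under R 4.3.3 (TMM, filterByExpr, quasi-likelihood, no covariate), with Benjamini-Hochberg adjustment over 15421 genes and a threshold of 0.05. SE is the fold change divided by the root of F. Levels per kilobase used exon lengths of GENCODE 29 (GRCh38), matched on identifiers. Alternatives used DESeq2 1.42.0, limma 3.58.1, other scalings and filters, and left-out libraries on the same genes. The older edgeR dispersion method was chosen after seeing the data. The main edgeR fit, DESeq2 and limma-trend on log2(CPM + 1) were tested on simulated data, and the other alternatives were not.

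The members, gene lists and tests were chosen with earlier results of these data known. All members could be named; values by library went to those with an unadjusted p under 0.05, without overlap, or at the extremes or highest abundance of a subgroup, and to up to 2 genes a subgroup of the wider list; CRB3, CLDN4, CLDN7, OCLN and other members shown by library beyond that were chosen after their values were seen, as were VCL, PANX1 and GJA1. Some genes of the wider list are not reported here. RSEM shares reads among genes that fit them. In GENCODE 29, exons of CRB3, CLDN7, ESRP2 and MARVELD3 overlap those of a gene on the other strand that held 24.3% to 145% of the member's own counts, and no use of strand is stated, so these 4 are uncertain. OCLN has partial copies in the genome and is uncertain too. The smallest expected count of a member in a library was 15.

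Replicate numbers come from the titles; whether they pair libraries was checked.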

Additional observations from a re-analysis of the deposited data

How the results depend on the processing

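The count of genes called was 1 in the main analysis, 209 in DESeq2, 21 with no low-count filter, 2 in limma-trend on log2(CPM + 1), 2 in limma-voom without rounding, 2 with the replicate number as a block, and 1515 without control 3 and NRG1 1. Leaving out single libraries gave 1 to 37, the last without NRG1 1. Members called were 0 in the main analysis and in every setting but DESeq2 (1) and the 2 against 2 comparison (13). Members at an unadjusted p under 0.05 numbered 10 (11.8% of all genes passed), and 25 in the 2 against 2 comparison (27.4%); single libraries left out gave 6 to 18. There were 6 without control 1 (13.2% of all genes), 6 without NRG1 3 (5.12% of all genes) and 18 without NRG1 1 (17.5% of all genes). The median log2 fold change of the members was 0.21, with 0.36 in the 2 against 2 comparison and 0.14 (without NRG1 2) to 0.30 (without NRG1 1) when single libraries were left out. The cause of these shifts was not tested. The replicate block left 10 members at an unadjusted p under 0.05 and 0 called. Deviations from the group means correlated at 0.02, 0.12 and -0.08 between same-numbered libraries, and not every library correlated best with its own number. These low values show no general pairing by number, but they say little about small sets of genes. The airway secretory markers, for example, were raised only where the replicate number was 3, whichever the vector. Why they were raised there was not tested.

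The signs of CTNND1, EPCAM, CGN, TJP3, DSG2, DSG3, MAL2, PRSS8, GJB2 and GJB5 were the same in the main analysis and all 17 alternatives. These genes had been picked for their unadjusted p in the same libraries, so stable signs add little support. Members with large p-values, such as CTNNA1, CLDN4 and MARVELD2, kept their signs too. Signs turned at least once for PKP2, GJB6, OCLN, PARD6B, JUP, CRB3, DSP, F11R, LLGL2, MARVELD3 and SPINT1. The 6 ratios were also computed with 1 CPM added to each gene. With any single library left out, the unadjusted p stayed under 0.05 for CGN, CTNND1, DSG2, DSG3, EPCAM and GJB2, and not in every case for GJB5, MAL2, PRSS8 and TJP3. TJP3 and GJB6 are low enough that counting error adds to their spread.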
